A study of Mus musculus with 12 samples.

Results

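The 10 genes described here are Tfrc, Atp7a, Slc40a1, Slc11a2, Slc31a1, Fth1, Ftl1, Steap3, Ireb2 and Aco1. They take part in the uptake, reduction, storage, export and regulation of iron or in the transport of copper. They were found by symbol among the 25319 genes of the deposited count table, and each matched 1 row there and 1 row of the FPKM table. All 10 passed the filter on low counts that left 14965 genes for testing. The study sequenced left ventricular RNA of 12 male C57BL/6 mice in 4 groups of 3. TAC dantrolene mice had transverse aortic constriction (TAC), a clip on the aortic arch that loads the ventricle with pressure, at 8 weeks of age, and then 4 weeks of oral dantrolene at a daily dose of 30 mg/kg. TAC control mice had the constriction without the drug, sham dantrolene mice had the operation without the clip but with the drug, and sham control mice had neither clip nor drug. Every mouse was anaesthetised and operated on, and all were sampled at 12 weeks. Dantrolene is a muscle relaxant that acts on ryanodine receptors, through which the sarcoplasmic reticulum releases calcium. Cardiomyocyte markers were abundant in every library, with 10 of 10 genes found and a summed level of 81884 to 171496 CPM (reads of a gene relative to the scaled total of its library).

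Most cells take up iron as transferrin bound to the transferrin receptor. The complex is carried into endosomes, where a Steap reductase turns ferric into ferrous iron and the transporter DMT1 moves it into the cytosol. There it is used, stored in ferritin or exported by ferroportin. Iron regulatory proteins sense cytosolic iron and bind hairpins in the transcripts called iron-responsive elements: binding in the 3′ UTR of Tfrc protects that mRNA from decay, while binding in the 5′ UTR of ferritin and ferroportin mRNA blocks translation. Copper enters through Ctr1 and is pumped into the secretory pathway or out of the cell by ATP7A. Cardiomyocytes need the transferrin receptor: mice that lack it there develop cardiomyopathy.

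The hairpins are shown because iron is known to act on Tfrc, ferritin and ferroportin mRNA through them. UTRs of protein-coding transcripts were searched on the transcript strand for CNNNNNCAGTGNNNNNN in which the 5 bases before CAGTGN pair with the 5 bases after it, with G to T pairs allowed. Each is printed 5′ to 3′ in 30 bases of GENCODE vM21 transcripts (GRCm38), with the bulged C and the 6-base loop in capitals. Tfrc carried 4 matches in the last exon, in its 3′ UTR, on the plus strand.
Tfrc, chr16:32631218-32631247: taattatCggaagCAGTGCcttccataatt
Tfrc, chr16:32631597-32631626: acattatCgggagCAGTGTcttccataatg
Tfrc, chr16:32631662-32631691: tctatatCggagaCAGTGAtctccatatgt
Tfrc, chr16:32631709-32631738: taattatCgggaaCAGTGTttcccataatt
Slc40a1 and Ftl1 (minus strand) and Fth1 (plus strand) carried 1 match each, in the 5′ UTR.
Slc40a1, chr1:45925465-45925494: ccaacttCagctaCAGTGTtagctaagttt
Fth1, chr19:9982731-9982760: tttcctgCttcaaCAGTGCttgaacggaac
Ftl1, chr7:45459779-45459808: tgtcttgCttcaaCAGTGTttgaacggaac
The same search found a match in the 5′ UTR of 31 of 20597 genes (0.151%) and in the 3′ UTR of 129 of 20995 genes (0.614%). A match describes the letters only, and the other 6 members held none in the windows searched. Slc11a2 is among these 6, although a form of its mRNA is known to carry an iron-responsive element in the 3′ UTR, so the pattern does not find every element.

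Levels per length of transcript were compared in FPKM, as deposited. Fth1, the ferritin heavy chain that oxidises iron for storage, averaged 4505 FPKM over the 12 libraries and ranked 14 among 25258 genes. Ftl1, the ferritin light chain, averaged 1213 FPKM, and its highest library lay below the lowest of Fth1. Aco1, Slc31a1, Steap3, Slc11a2, Slc40a1 and Tfrc followed at means of 8.36, 7.94, 6.13, 4.31, 3.09 and 1.93 FPKM, and each overlapped the next in this order. Ireb2 averaged 0.528 FPKM and overlapped Tfrc. Atp7a was the lowest at 0.0542 FPKM, and no library of it reached the lowest of Ireb2.

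**Figure D1:**
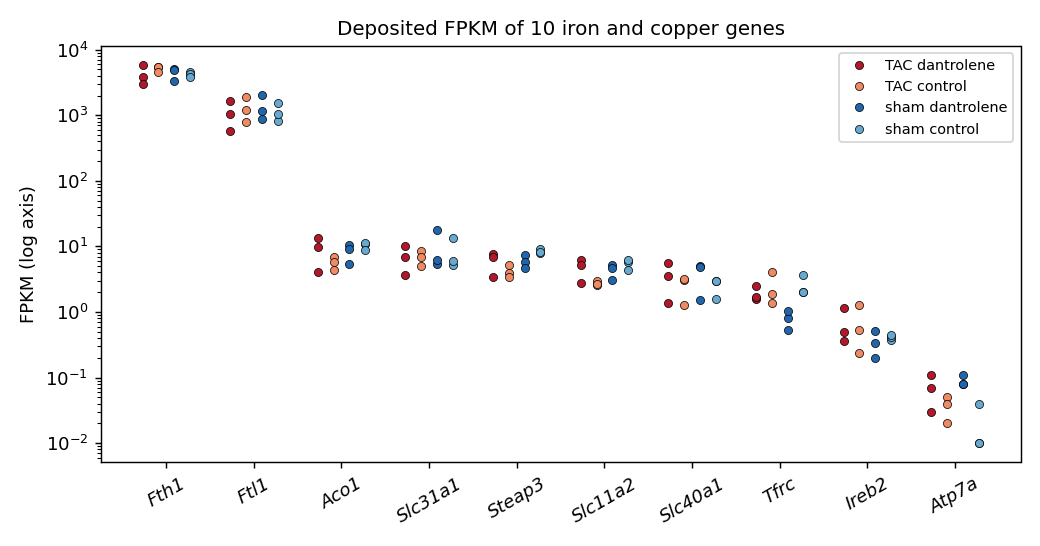
Deposited FPKM (log axis) of the 10 genes in 12 left ventricles, 1 point a library, coloured by group. Ferritin chains stand between 567 and 5875 FPKM, and Atp7a at or under 0.11 FPKM.

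Library totals ran from 25766378 to 38363106 reads. On the first principal component of log2 CPM (41.7% of the variance), TAC dantrolene 1, TAC control 1, sham dantrolene 3 and sham control 3 lay apart from the other libraries. In these 4 the slope of log2 CPM on log2 gene length ran from -0.137 to 0.0621, against 0.126 to 0.332 in the other 8, so long genes had fewer reads there relative to short ones. The mitochondrial share of the counts ran from 1.71% to 22.4%. Because each group holds 1 of the 4 libraries, values without them are given beside the main differences. The tissue was sequenced in bulk, so fewer cells of a type and less RNA per cell cannot be told apart.

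Tfrc encodes the transferrin receptor (ENSMUSG00000022797.13, chromosome 16, 32608920 to 32632794, plus strand). It stood at 4.51, 5.60 and 3.76 CPM in sham dantrolene mice 1 to 3, against 10.99, 10.4 and 22.3 CPM in sham control mice 1 to 3. It stood at 13.97, 8.25 and 13.3 CPM in TAC dantrolene mice and at 11.5, 11.6 and 24.1 CPM in TAC control mice. Every sham dantrolene library was lower than every library of the 3 other groups, while those 3 groups overlapped. The group means were 11.8 ± 3.13 CPM in TAC dantrolene, 15.7 ± 7.27 in TAC control, 4.62 ± 0.924 in sham dantrolene and 14.6 ± 6.71 in sham control (SD, n = 3 each).

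Sham dantrolene against sham control is the comparison in which Tfrc stands out, and its values there are given as a description. Tfrc had the smallest p of all 14965 genes tested in it and Atp7a ranked 3, so the members are treated as selected on the p values of this contrast. Tfrc was 3.14-fold lower, a log2 difference of -1.65 ± 0.41 (SE). It was -1.20 without sham control 3, the highest sham control library, and -1.06 ± 0.37 without the 4 libraries apart. Over all genes tested the quasi-likelihood test of edgeR called 0 genes in this comparison, a background of 0%, and the DESeq2 Wald test called 0. Tfrc and Atp7a were among the 107 genes (0.715%) whose unadjusted p was under 0.05. Tfrc, Atp7a and Steap3 had groups that did not overlap, as did 7.37% of all genes. Developing red cells hold much transferrin receptor, and the summed erythroid markers (8 of 10 genes found, none at 0 in all libraries of a group) overlapped, at 834 to 3287 CPM in sham dantrolene and 911 to 4404 CPM in sham control. All 7 erythroid markers tested nevertheless had a negative difference, with a median of -0.41 (log2), and 0 of them passed. Fibroblast markers did not overlap, at 694 to 851 CPM in sham dantrolene and 523 to 690 CPM in sham control, with 8 of 8 positive and a median of 0.30. Epicardial markers did not overlap either, at 3.68 to 9.88 CPM in sham dantrolene and 1.59 to 2.95 CPM in sham control, with 6 of 6 tested positive and a median of 1.45. The part of these 3 marker lists in the differences of Tfrc and Atp7a was not tested.

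Under TAC the Tfrc levels of drug and control mice overlapped. TAC dantrolene against TAC control gave -0.41 ± 0.40 (log2, SE), 0.04 without TAC control 3 and -0.72 ± 0.36 without the 4 libraries apart. The interaction of surgery and dantrolene, which sets the drug difference under TAC against that under sham, was 1.24 ± 0.56, with 0 genes called by edgeR over the table. It shares the sham libraries that single out Tfrc, and it was 0.35 without the 4 libraries apart. TAC dantrolene against sham dantrolene gave 1.35 ± 0.41, and 1.06 ± 0.37 without the 4 libraries apart. It uses the same low sham dantrolene libraries on which Tfrc stands out, so its values too are a description. The groups did not overlap, as in 2.9% of all genes in that direction, and nothing is read from this. That comparison also called 0 genes by edgeR (0%), with 256 at an unadjusted p under 0.05 (1.71%), Tfrc the 1 member among them, and DESeq2 called 4 genes and no member. All 7 erythroid markers tested were positive there, with a median of 0.95 (log2). Their sums overlapped, at 834 to 3287 CPM in sham dantrolene and at 11663, 874 and 911 CPM in TAC dantrolene mice 1 to 3. The high sum was thus that of TAC dantrolene 1, a library apart. Epicardial markers had 6 of 6 tested positive (median 2.31), cardiomyocyte markers 9 of 10 positive (0.25) and fibroblast markers 7 of 8 negative (-0.21). The part of these marker lists was not tested. TAC control against sham control gave 0.11 ± 0.40, -0.34 without TAC control 3, 0.54 without sham control 3 and 0.72 ± 0.36 without the 4 libraries apart.

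**Figure D2:**
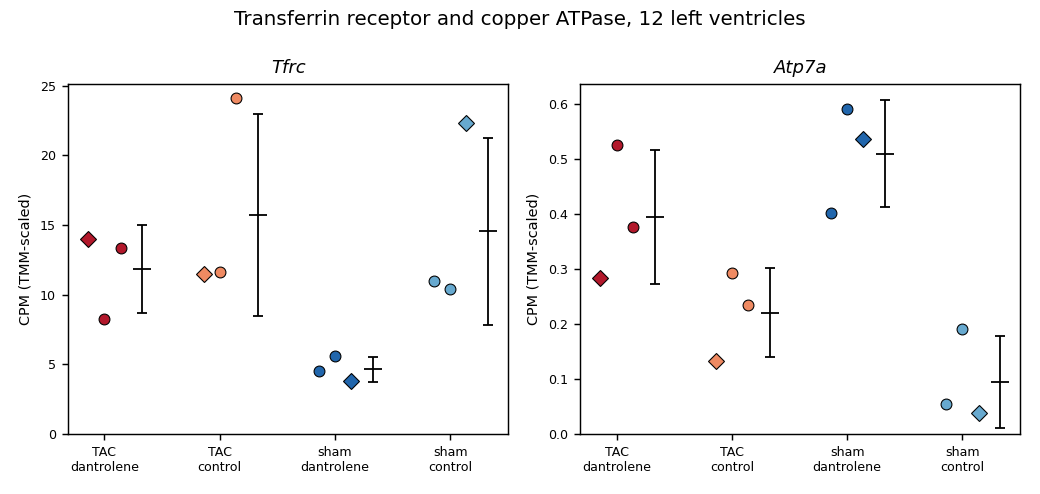
CPM of Tfrc and Atp7a in each library, with the mean and SD of each group beside the points; diamonds mark the 4 libraries that lay apart. Sham dantrolene is lowest for Tfrc (3.76 to 5.60 CPM) and highest on average for Atp7a (0.402 to 0.591 CPM).

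Atp7a encodes the copper-transporting ATPase that is mutated in Menkes disease in people (ENSMUSG00000033792.10, chromosome X, 106027276 to 106124926, plus strand). It was measured from very few reads: 13, 19 and 13 in sham dantrolene mice 1 to 3, against 2, 6 and 1 in sham control mice. There were 7, 25 and 12 reads in TAC dantrolene mice and 3, 11 and 8 in TAC control mice. The sham groups did not overlap, and the TAC groups did. Summed over a group, the 45 reads of sham dantrolene have an exact Poisson interval of 32.8 to 60.2 reads, and the 9 reads of sham control one of 4.12 to 17.1, which cover counting error only. Atp7a is treated as selected on this sham contrast, so the gap between the intervals is a description and nothing is read from it.

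As CPM, Atp7a averaged 0.510 ± 0.0976 in sham dantrolene and 0.0944 ± 0.0840 in sham control (SD, n = 3 each). The log2 difference was 2.38 ± 0.67 (SE), 2.05 without sham control 3, 3.33 without sham control 2 and 2.04 ± 0.73 without the 4 libraries apart. It averaged 0.395 ± 0.122 CPM in TAC dantrolene and 0.220 ± 0.0809 CPM in TAC control, a difference of 0.82 ± 0.62. TAC control against sham control gave 1.21 ± 0.69. Atp7a reached the minimum of the filter, 0.331 CPM, in 5 libraries, 3 of sham dantrolene and 2 of TAC dantrolene, and in 0 of 6 control libraries. It was therefore tested only because its level in dantrolene libraries was high enough. On the scale of log2(FPKM + 1) its sham difference shrank to 0.10, since its FPKM never exceeded 0.11.

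Slc31a1 encodes Ctr1, which imports copper (ENSMUSG00000066150.10, chromosome 4, 62360727 to 62391769, plus strand). It stood at 24.5, 28.4 and 105.7 CPM in sham dantrolene mice 1 to 3, against 23.5, 25.7 and 67.6 CPM in sham control mice. It stood at 26.2, 27.2 and 44.8 CPM in TAC dantrolene mice and 60.1, 25.2 and 32.9 CPM in TAC control mice. The highest value of 3 groups fell in a library apart on the first principal component. In TAC dantrolene the highest was mouse 3 and the library apart was the lowest. The sham drug difference was 0.44 ± 0.58 (log2, SE) and turned to -0.56 without sham dantrolene 3, it was 0.12 ± 0.27 without the 4 libraries apart, and no pair of groups parted.

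Steap3, the ferrireductase of endosomes, and Slc11a2, which encodes DMT1, act on the same step. Steap3 (ENSMUSG00000026389.14, chromosome 1, 120190757 to 120272705, minus strand) stood at 36.5, 34.2 and 21.6 CPM in TAC control mice 1 to 3, against 48.1, 50.5 and 54.1 CPM in sham control mice. It stood at 32.9, 41.0 and 39.9 CPM in TAC dantrolene mice and at 44.6, 34.0 and 36.2 CPM in sham dantrolene mice. Sham control was thus the highest group and did not overlap the next, sham dantrolene. Slc11a2 (ENSMUSG00000023030.14, chromosome 15, 100387898 to 100425072, minus strand) stood at 24.5, 19.9 and 17.5 CPM in TAC control mice, against 34.8, 35.4 and 30.0 CPM in sham control mice. It stood at 26.4, 33.1 and 30.9 CPM in TAC dantrolene mice and at 31.9, 27.9 and 24.5 CPM in sham dantrolene mice. TAC control was the lowest group for Slc11a2 and overlapped no other, though its highest library and the lowest of sham dantrolene both round to 24.5 CPM.

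Aco1 encodes iron regulatory protein 1, which is a cytosolic aconitase when it holds an iron-sulfur cluster (ENSMUSG00000028405.9, chromosome 4, 40143081 to 40198338, plus strand). It stood at 27.4, 31.2 and 25.1 CPM in TAC control mice 1 to 3, against 44.6, 43.4 and 40.5 CPM in sham control mice. It stood at 25.8, 47.6 and 38.8 CPM in TAC dantrolene mice and at 42.3, 36.4 and 28.5 CPM in sham dantrolene mice. TAC control lay under sham control without overlap, and both dantrolene groups spread across the gap. In dantrolene mice the lowest library of each arm was the one apart on the first principal component.

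Pressure overload without the drug, TAC control against sham control, gave log2 differences of -0.73 ± 0.25 (SE) for Steap3, -0.70 ± 0.22 for Slc11a2 and -0.62 ± 0.26 for Aco1. These 3 genes and Fth1 did not overlap between the groups, 4 of 10 members against a background of 17.4%. Over all genes tested edgeR called 0, a background of 0%, and so 0 members; 3 members had an unadjusted p under 0.05, against 7.93% of all genes, and DESeq2 called 79 genes with no member among them. Without the 4 libraries apart the difference of Slc11a2 was -0.93 ± 0.20 with an adjusted p = 0.0365 by edgeR, among 484 genes called, and those of Steap3 (-0.84 ± 0.25) and Aco1 (-0.66 ± 0.21) did not pass. The median member had a difference of 0.16, against 0.10 over all genes. Summed epicardial markers were higher in TAC control without overlap (4.61 to 38.1 against 1.59 to 2.95 CPM, 8 of 8 genes found, none at 0 in all libraries of a group), with 6 of 6 tested positive and a median difference of 3.86 (log2). The 38.1 CPM was that of TAC control 1, a library apart, against 6.39 and 4.61 CPM in TAC control 2 and 3. Fibroblast markers overlapped as sums (560 to 1576 against 523 to 690 CPM), but 8 of 8 were positive with a median of 0.77. Macrophage markers overlapped as sums (665 to 1007 against 438 to 852 CPM), and 11 of 12 were positive with a median of 0.46. Erythroid markers overlapped as sums too (1822 to 8908 against 911 to 4404 CPM), and 7 of 7 tested were positive with a median of 0.48. The part of these marker lists in the differences of Steap3, Slc11a2 and Aco1 was not tested.

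Dantrolene under TAC gave 0.55 ± 0.22 (log2, SE) for Slc11a2, the only member whose TAC dantrolene and TAC control libraries did not overlap, as in 4.76% of all genes. Steap3 (0.30 ± 0.24) and Aco1 (0.42 ± 0.26) had overlapping groups. The test called 0 of 14965 genes by edgeR, a background of 0%, with 486 at an unadjusted p under 0.05 (3.25%), Slc11a2 the 1 member among them; DESeq2 called 12 genes and no member. Without the 4 libraries apart Slc11a2 stood at 0.78 ± 0.20 with an adjusted p = 0.0581 by edgeR. Of the fibroblast markers 7 of 8 were negative in this comparison, with a median of -0.76 (log2), and their part was not tested. This comparison shares the TAC control libraries with the one before, so the opposite signs of Slc11a2 are not independent. In sham hearts dantrolene gave -0.25 ± 0.22 for Slc11a2, -0.41 ± 0.24 for Steap3, whose sham groups did not overlap, and -0.26 ± 0.26 for Aco1. The interaction was 0.80 ± 0.32 for Slc11a2, 0.72 ± 0.35 for Steap3 and 0.69 ± 0.37 for Aco1, and edgeR called 0 genes in it, DESeq2 1 gene and no member, while 422 had an unadjusted p under 0.05 (2.82%).

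**Figure D3:**
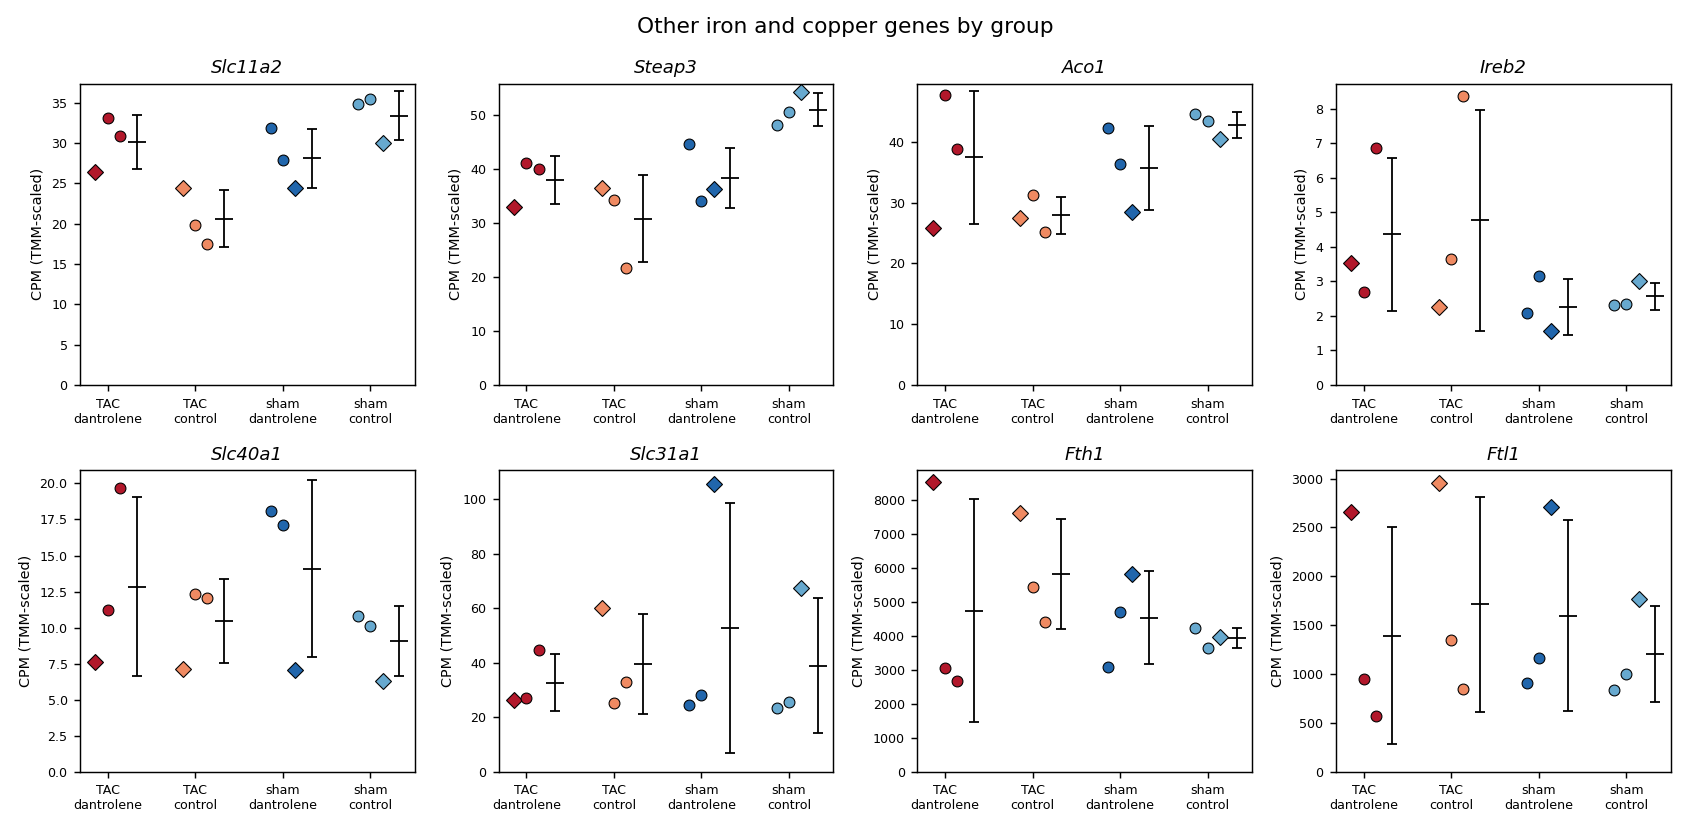
CPM of the other 8 genes in each library, with group mean and SD; diamonds mark the 4 libraries that lay apart. TAC control lies under sham control for Slc11a2, Steap3 and Aco1, and the diamonds lie at the bottom of each group for Slc40a1 and at the top for Ftl1.

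Ireb2 encodes iron regulatory protein 2, which is degraded when iron is plentiful (ENSMUSG00000032293.7, chromosome 9, 54863789 to 54912530, plus strand). It stood at 3.52, 2.69 and 6.86 CPM in TAC dantrolene mice 1 to 3, and at 2.26, 3.65 and 8.38 CPM in TAC control mice. It stood at 2.07, 3.14 and 1.57 CPM in sham dantrolene mice and at 2.32, 2.35 and 3.02 CPM in sham control mice. Mouse 3 of each TAC group was high, and all pairs of groups overlapped. TAC against sham over both drug arms gave a log2 difference of 0.92 ± 0.37 (SE). That comparison had 0 genes called by edgeR (0%) and 1014 at an unadjusted p under 0.05 (6.78%), Ireb2 and Tfrc the 2 members among them. DESeq2 called 52 genes and no member. The comparison contains the low sham dantrolene libraries on which Tfrc stands out, so the place of Tfrc in it is a description. For Ireb2, TAC control against sham control gave 0.90 ± 0.52, 0.21 without TAC control 3 and 1.34 ± 0.52 without the 4 libraries apart.

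Ferritin mRNAs were the most abundant of the set. Fth1 (ENSMUSG00000024661.6, chromosome 19, 9980598 to 9985098, plus strand) averaged 4754 ± 3277 CPM in TAC dantrolene, 5832 ± 1631 in TAC control, 4542 ± 1374 in sham dantrolene and 3948 ± 298 in sham control (SD, n = 3 each). Its 3 TAC control libraries, at 7617, 5458 and 4421 CPM, all exceeded the 4229, 3635 and 3979 CPM of sham control, with a log2 difference of 0.56 ± 0.46 (SE). Without the 4 libraries apart that difference was 0.31 ± 0.24. In TAC dantrolene Fth1 ran from 2680 CPM in mouse 3 to 8531 CPM in mouse 1, a wider range than the other 3 groups had. TAC dantrolene against TAC control gave -0.29 ± 0.46, -1.05 without TAC dantrolene 1 and -0.79 ± 0.24 without the 4 libraries apart.

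Ftl1 (ENSMUSG00000050708.12, chromosome 7, 45457944 to 45459884, minus strand) had mean levels of 1391 ± 1111 CPM in TAC dantrolene, 1714 ± 1099 in TAC control, 1595 ± 977 in sham dantrolene and 1202 ± 493 in sham control. The highest library of each group was the one apart on the first principal component, at 2655, 2950, 2713 and 1763 CPM in that order. The groups overlapped in the 4 comparisons of single groups, whose log2 differences lay between -0.30 and 0.51, and the interaction was -0.71 ± 0.90 (SE). The ratio of Fth1 to Ftl1 FPKM ran from 2.40 to 5.83, with group means of 4.15 ± 0.949 in TAC dantrolene, 4.42 ± 1.47 in TAC control, 3.58 ± 1.08 in sham dantrolene and 4.07 ± 1.56 in sham control. Together the 2 chains took 0.365% to 0.801% of the counts of a library. Ferritin has processed pseudogenes that can share its reads; the Ftl2 pseudogene held 67 reads in all libraries together.

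Slc40a1 encodes ferroportin, the iron exporter (ENSMUSG00000025993.8, chromosome 1, 45908068 to 45926523, minus strand). It stood at 18.1, 17.1 and 7.03 CPM in sham dantrolene mice 1 to 3, against 10.8, 10.1 and 6.27 CPM in sham control mice. It stood at 7.61, 11.2 and 19.7 CPM in TAC dantrolene mice and at 7.10, 12.3 and 12.0 CPM in TAC control mice. The lowest library of each group was again the one apart on the first principal component, and all groups overlapped. The drug difference was 0.64 ± 0.44 (log2, SE) in sham hearts and 0.29 ± 0.43 under TAC, and without the 4 libraries apart 0.77 ± 0.28 and 0.36 ± 0.28. Over both surgery arms dantrolene against control gave 0.46 ± 0.31 for Slc40a1, -1.03 ± 0.28 for Tfrc and 1.60 ± 0.46 for Atp7a. That comparison called 0 genes by edgeR (0%), with 156 at an unadjusted p under 0.05 (1.04%), and 1 by DESeq2, which was no member. It contains the sham libraries that single out Tfrc and Atp7a.

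**Figure D4:**
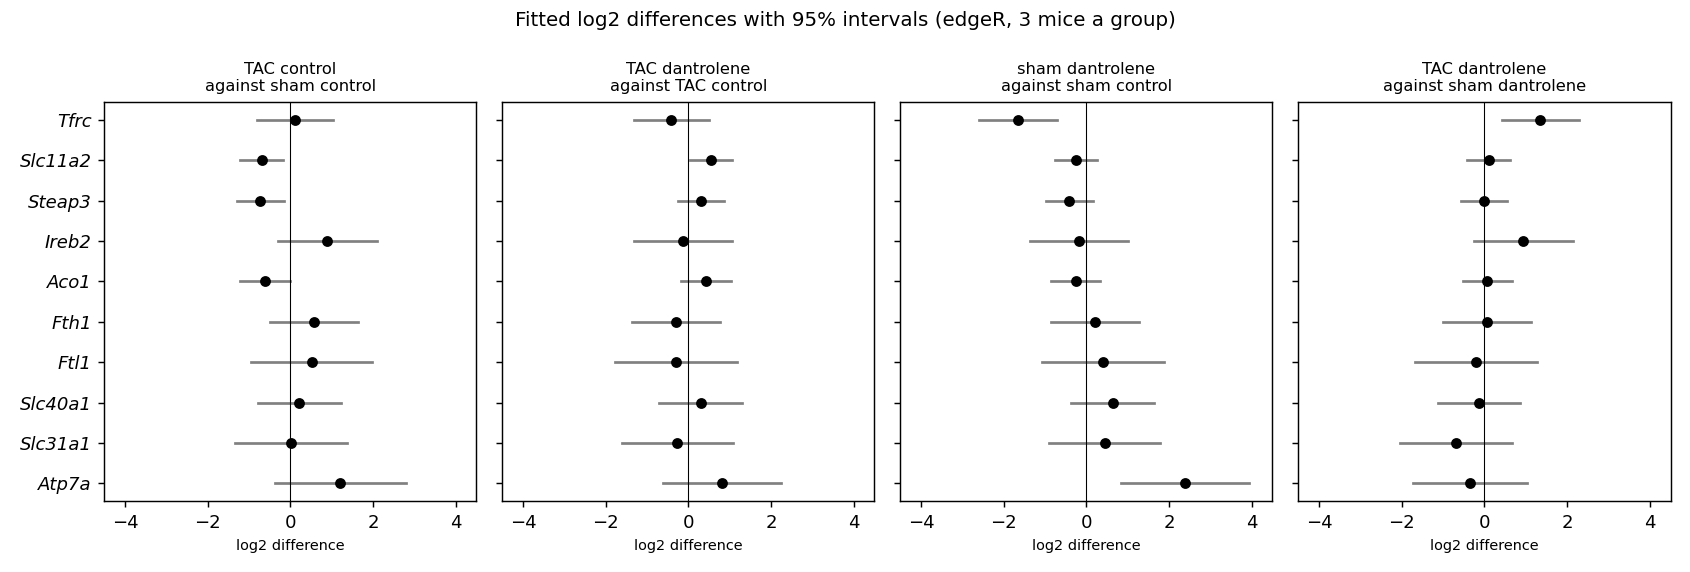
Fitted log2 differences (points) with 95% intervals (lines, 8 degrees of freedom, not adjusted for the number of genes) of the 10 genes in 4 comparisons of groups. The largest are those of Tfrc (-1.65) and Atp7a (2.38) between sham dantrolene and sham control.

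Levels of several members followed the length bias of the libraries. Over the 12 libraries log2 CPM correlated with the length slope at r = -0.93 for Ftl1, whose annotated exons cover 1340 bases, and at -0.88 for Fth1 (3469 bases). Slc40a1, with 9000 bases, had r = 0.75, and Aco1, with 4496 bases, 0.61. Tfrc (6185 bases) had r = 0.06 and Atp7a (8734 bases) 0.25, so r did not rise with exon length in every gene. With the slope as a covariate the sham drug difference was -1.65 for Tfrc and 2.47 for Atp7a, and without the 4 libraries apart -1.06 and 2.04. Both genes are treated as selected on that contrast, and the part of length bias in their differences was not tested. TAC control against sham control was 0.10 for Ftl1 with the covariate, against 0.51 without it. These points share their libraries and depth, and the correlations are a description.

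**Figure D5:**
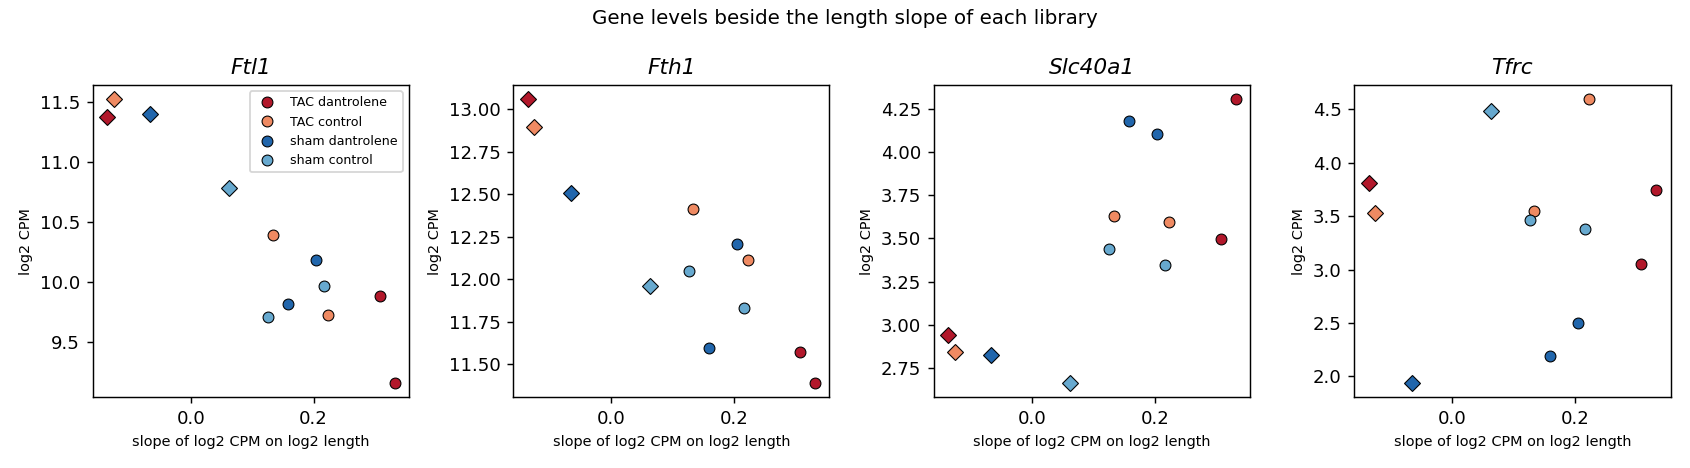
Log2 CPM of Ftl1, Fth1, Slc40a1 and Tfrc in each library against the slope of log2 CPM on log2 gene length in that library; colours give the group and diamonds the 4 libraries apart. Ftl1 falls and Slc40a1 tends to rise with the slope (r = -0.93 and 0.75), while Tfrc shows no trend (r = 0.06).

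Members also varied with each other across libraries. Slc11a2 correlated with Steap3 at r = 0.85 and with Aco1 at 0.84 over 12 libraries, and at 0.91 and 0.96 over the 8 that were not apart. Tfrc and Ireb2 correlated at 0.68 over 12 and 0.76 over 8 libraries. Fth1 and Ftl1 did so at 0.86 and 0.74. Tfrc and Atp7a had r = -0.63 over 12 libraries and -0.37 once the group means were taken out. The genes most like Tfrc over 12 libraries were the noncoding Gm26636 (r = 0.89), the unclassified transcript RP23-418O21.5 (0.89) and Dzip3 (0.88). Those most like Atp7a were the noncoding Gm26534 (0.83), Peg10 (0.83), a gene derived from a retrotransposon, and the antisense transcript 2310040G07Rik (0.79). All 6 averaged under 1 CPM.

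The wider metal pathway was read from 7 lists with 120 further genes, of which 113 were in the count table and 98 were tested. None of the 98 passed over all genes by edgeR in any of the 7 comparisons. In TAC control against sham control 55 of 98 were positive, against 57.2% of all genes (median log2 difference 0.06, against 0.10 over all genes). By list, with some genes on more than 1, copper transport and chaperones had 13 of 16 positive (median 0.36). Iron uptake had 7 of 9, iron storage and export 4 of 5, and iron regulation 4 of 12 (median -0.18). Mitochondrial iron had 13 of 24, heme 7 of 17, and zinc and manganese 9 of 18. In TAC dantrolene against TAC control 53 of 98 were positive, against 51.8% of all genes (median 0.03, against 0.02 over all genes). Copper had 5 of 16 positive, iron uptake 4 of 9, iron storage and export 2 of 5, and iron regulation 10 of 12 (median 0.30). Mitochondrial iron had 11 of 24, heme 12 of 17, and zinc and manganese 10 of 18. This comparison shares the TAC control libraries, with the opposite sign, with the one before. The list counts of these comparisons are therefore not independent. In sham dantrolene against sham control 48 of 98 were positive, against 52.5% of all genes (median -0.0025, against 0.02 over all genes). Copper had 9 of 16 positive, iron uptake 4 of 9, iron storage and export 3 of 5, and iron regulation 4 of 12. Mitochondrial iron had 11 of 24, heme 7 of 17, and zinc and manganese 11 of 18.

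Metallothioneins, small proteins that bind copper and zinc and are induced by metals, had the smallest p of the pathway under the drug in TAC hearts. Mt2 stood at 15.8, 22.1 and 20.9 CPM in TAC dantrolene mice 1 to 3, against 19.9, 90.6 and 92.1 CPM in TAC control mice, a log2 difference of -1.79 ± 0.56 (SE, edgeR adjusted p = 1.00). Mt1 averaged 174 ± 55.8 CPM in TAC dantrolene and 314 ± 72.5 CPM in TAC control (SD, n = 3 each), a difference of -0.85 ± 0.34 (edgeR adjusted p = 1.00). For both genes TAC control 1 lay within the range of TAC dantrolene and TAC control 2 and 3 lay above it. Sod3, the extracellular copper and zinc superoxide dismutase, averaged 51.0 ± 12.0 CPM in TAC dantrolene and 74.2 ± 14.3 CPM in TAC control (-0.54 ± 0.26, edgeR adjusted p = 1.00). Its groups did not overlap, as in 4.76% of all genes, but TAC dantrolene 1 at 62.7 CPM lay close to TAC control 3 at 63.1 CPM. In sham hearts Mt2 averaged 43.4 ± 24.5 CPM in sham dantrolene and 28.9 ± 12.2 CPM in sham control, with overlap. Its interaction was -2.37 ± 0.77 (edgeR adjusted p = 1.00).

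In sham hearts the smallest p of the pathway belonged to Alas1, the rate-limiting enzyme of heme synthesis in most tissues. Alas1 stood at 149, 152 and 107 CPM in sham dantrolene mice 1 to 3, against 213, 219 and 263 CPM in sham control mice, a log2 difference of -0.76 ± 0.25 (SE, edgeR adjusted p = 1.00). The groups did not overlap, as for Tfrc and as in 7.37% of all genes. In both Tfrc and Alas1 the lowest sham library was sham dantrolene 3 and the highest sham control 3, both among the 4 that lay apart. Under TAC Alas1 averaged 181 ± 28.8 CPM in TAC dantrolene and 165 ± 19.7 CPM in TAC control (SD, n = 3 each), and its interaction was 0.90 ± 0.36 (edgeR adjusted p = 1.00). Hp, which encodes the hemoglobin scavenger haptoglobin, rested on a single library, at 9.05 CPM in sham dantrolene 3 against 0.309 and 1.62 CPM in sham dantrolene 1 and 2. Cp, which encodes the copper-containing ferroxidase ceruloplasmin, averaged 17.4 ± 9.31 CPM in sham dantrolene and 11.3 ± 4.08 CPM in sham control, with overlap. For overload without the drug the smallest p belonged to Pgrmc1, a heme-binding membrane protein. TAC control stood at 14.7 ± 6.90 CPM and sham control at 6.89 ± 1.71 CPM, with overlap (1.09 ± 0.48, edgeR adjusted p = 0.610). TAC control 1, a library apart, was at 7.10 CPM, under sham control 1 and 2 at 8.29 and 7.38 CPM.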

How the data were processed

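Poly(A) RNA was sequenced in paired 150-nucleotide reads, per the labels' protocols. The authors deposited raw read counts by gene, with no normalisation, and FPKM values, scaled to length and library size. Named in the submitters' processing notes, without versions or roles, are GRCm38, TopHat2, bcl2fastq and edgeR. Which counter, annotation release and strand option were used is not given in the sources used here, so antisense partners may not be told apart. Slc11a2 shares 402 exonic bases with Gm5475 (6 reads in all) on the other strand, and Slc31a1 shares none with Cdc26.

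Samples were grouped by title, and 0 value columns were left without a sample. With edgeR 4.0.16 in R 4.3.3, filterByExpr (minimum count 10, minimum total 15) left 14965 genes and removed 0.0418% of the counts. CPM are counts scaled by TMM-adjusted totals, and log2 CPM used a prior count of 2. All 12 libraries entered 1 robust quasi-likelihood fit of 4 group means, with 7 comparisons, two-sided tests and Benjamini-Hochberg adjustment over all genes tested (threshold 0.05). The standard error is the log2 difference over the square root of F. The fit was tested on simulated counts that carried no length bias. They check the calculation, and nothing about power in these libraries is read from them. Each library is a separate mouse, and no pair of a group agreed within sampling noise (chi-square per gene at least 24.5). Gene positions, exon lengths and UTRs came from GENCODE vM21 on GRCm38.

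The 10 genes and all lists were chosen with earlier results of these data known, so no p adjusted over a list is given and a member's own difference is a description. Genes named beside the 10 were, in each comparison, up to 4 pathway genes with the smallest p, and the 3 genes closest to Tfrc and to Atp7a by Pearson correlation; the genes described with values in the text are a part of these. Alternatives were DESeq2 1.42.0, RLE scaling, no filter, each library left out, a replicate block, the 4 libraries apart left out, the length slope as covariate, and limma 3.58.1 on log2(FPKM + 0.1) and log2(FPKM + 1).

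Within each surgery arm, equally numbered mice deviated together from their group means: r was 0.556, 0.300 and 0.613 within TAC and 0.465, 0.366 and 0.672 within sham. Unequally numbered mice gave r from -0.561 to 0.221 within TAC and from -0.616 to 0.375 within sham. The 0.375, of sham dantrolene 1 with sham control 2, exceeded the 0.366 of the equally numbered mice 2. Mice 1 of TAC and mice 3 of sham are the libraries apart. The pairing comes from these data and not from a stated shared batch.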

Additional observations from a re-analysis of the deposited data

How the results depend on the processing

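No member was called by edgeR over all genes in the analysis as reported, and Slc11a2 without the 4 libraries apart was the only call of a member under any alternative. Of the 70 differences of members (10 genes in 7 comparisons), 38 kept their sign under all 20 alternatives. For Tfrc and Atp7a in sham hearts the sign follows from how they were chosen and says nothing about stability. Of 1400 recomputed values 43 moved by over 1 SD between mice. Counts of genes called, 0 in every comparison as reported, changed with the test and the libraries. In TAC control against sham control there were 79 with DESeq2, 3 without a filter, 484 without the 4 libraries apart and 60 with the length slope as covariate. In TAC dantrolene against TAC control there were 12, 1 and 478 under the first 3 of these. TAC dantrolene against sham dantrolene had 4 with DESeq2, the interaction 1 with DESeq2 and 7 without the 4 libraries apart, TAC against sham over both drug arms 52 with DESeq2, 4 without a filter, 67 without the 4 libraries and 15 with the slope, and dantrolene against control over both surgery arms 1 with DESeq2. The cause was not tested. Leaving out 1 library gave 0 to 15 genes in TAC control against sham control (15 without TAC control 1), 0 to 1 in TAC dantrolene against TAC control and in TAC against sham over both arms, and 0 in the others. The replicate block changed no call and gave 0 genes in each comparison. Between the surgery arms equal numbers did not pair the mice, with r of -0.377, 0.270 and -0.313 for dantrolene mice and -0.294, 0.283 and -0.304 for control mice. Depth limited Atp7a most, at 1 to 25 reads a library.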
